A study of Mus musculus with 8 samples.

Results

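The 10 genes described here are Dcn, Lum, Col1a1, Col1a2, Col3a1, Col4a1, Igf2, Igfbp2, Igfbp7 and Slc6a13, genes of fibroblasts, meninges and extracellular matrix that were read out in sorted cells of the mouse central amygdala. They are 10 of 20692 genes in the files, and 8 of them passed the filter on low counts, as 11328 genes did. Lum and Igfbp2 did not pass. The genes were selected on their levels in these same 8 libraries, compared between ages and between cell populations. Their differences in those comparisons are therefore given as descriptions, and nothing is read from a test of them.

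Male mice carried PKC delta::Cre or SST::Cre together with a Rosa loxP-STOP-loxP td-Tomato allele, so that cells with a history of either promoter became fluorescent. There were 4 PKCd libraries, with replicates 1 and 2 from mice of 9 weeks and replicates 3 and 4 from mice of 18 weeks. There were 4 SST libraries, with replicates 1 and 2 from mice of 8 weeks and replicates 3 and 4 from mice of 20 weeks. Each library came from about 1000 fluorescent cells of 1 mouse, sorted after papain dissociation of tissue punches of 1 mm. The labels give polyadenylated RNA as the molecule but name a kit for small RNA (SMARTer smRNA-Seq), so which RNA was sequenced, and with it what a level represents, is uncertain. Mice of 8 to 9 weeks are called younger and those of 18 to 20 weeks older below. Cre is driven by the promoter of Prkcd or Sst in any cell that uses it, so the sort takes the reporter and not a neuronal marker. In bulk RNA, fewer cells of a type and less RNA per cell cannot be told apart.

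Perivascular fibroblasts lie in the space around larger brain vessels and share many genes with the fibroblasts of the meninges. They secrete collagen and small proteoglycans, which bind growth factors and order the collagen fibrils. Type I collagen is a trimer of the Col1a1 and Col1a2 products, type III collagen is made from Col3a1 alone, and type IV collagen, from Col4a1 and Col4a2, forms the sheet of basement membranes. Igf2 is a growth factor that meningeal and choroid plexus cells are known to secrete, and Igfbp2 and Igfbp7 encode secreted proteins named for binding insulin-like growth factors. Slc6a13 encodes GAT2, a transporter of GABA and taurine known from the meninges. Igfbp7 and Col4a1 are also known from endothelial cells and pericytes, so the 10 genes are not markers of 1 cell type. The libraries carry no position, so whether the reads came from cells around vessels, in the meninges or elsewhere was not measured.

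Several promoter sequences are shown for genes whose levels differ in different ways across the libraries described below: Col1a2 and Igf2 were lower in every PKCd library, Igfbp7 was lower in every older library, and Col3a1 followed neither division. RefSeq windows of build GRCm38.p6 matched 7 of the 10 genes by symbol, and Dcn, Lum and Col1a1 had no entry. Each run below is the 250 bases before the annotated start site, 5′ to 3′ on the gene's strand. Capitals mark matches to the TATA box letters TATAAA, to the CCAAT box, or to the GC box letters GGGCGG. Each motif was searched on both strands, so the reverse of the GC box reads CCGCCC in the printed run, and overlapping matches would each count. The windows are chr6:4505368-4505617 on the plus strand for Col1a2, chr1:45311288-45311537 on the plus strand for Col3a1, chr7:142657497-142657746 on the minus strand for Igf2, and chr5:77408046-77408295 on the minus strand for Igfbp7.
Col1a2: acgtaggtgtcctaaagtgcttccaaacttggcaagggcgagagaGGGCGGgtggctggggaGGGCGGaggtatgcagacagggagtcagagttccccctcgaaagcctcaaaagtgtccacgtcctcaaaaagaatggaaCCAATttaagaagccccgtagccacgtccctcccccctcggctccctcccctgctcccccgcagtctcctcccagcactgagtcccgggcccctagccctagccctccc
Col3a1: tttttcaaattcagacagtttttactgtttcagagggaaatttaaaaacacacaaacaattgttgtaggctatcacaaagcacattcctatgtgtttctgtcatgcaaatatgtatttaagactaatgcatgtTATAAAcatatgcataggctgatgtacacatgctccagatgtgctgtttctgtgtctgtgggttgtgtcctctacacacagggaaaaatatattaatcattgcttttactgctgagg
Igf2: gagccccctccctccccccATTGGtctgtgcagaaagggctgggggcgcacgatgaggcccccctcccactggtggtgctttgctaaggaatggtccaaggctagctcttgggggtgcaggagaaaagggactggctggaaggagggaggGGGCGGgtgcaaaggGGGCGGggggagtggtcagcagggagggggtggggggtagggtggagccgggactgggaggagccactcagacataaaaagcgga
Igfbp7: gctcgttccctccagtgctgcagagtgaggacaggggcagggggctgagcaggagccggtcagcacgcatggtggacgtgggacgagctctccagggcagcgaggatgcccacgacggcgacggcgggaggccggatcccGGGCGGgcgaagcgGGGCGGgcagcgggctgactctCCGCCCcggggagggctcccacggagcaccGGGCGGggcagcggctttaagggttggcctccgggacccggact

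The Igf2 window is the one of its 4 windows that lies before the transcript carrying nearly all Igf2 reads in these libraries. Among 32817 mouse windows of the same length, 12.4% held TATAAA, 33.8% CCAAT and 32.7% GGGCGG, and the median GC content was 52.4%. The Igfbp7 window held 4 GGGCGG matches at 74% GC, and the Igf2 window held 2 with 1 reverse CCAAT match at 66% GC. In the Col1a2 window, at 62% GC, 2 GGGCGG matches and 1 CCAAT match were found. The Col3a1 window had 35.2% GC and 1 TATAAA match, which began 117 bases before the start. A match is a string of letters here and no measured binding site.

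Library totals were 10316149 to 18242496 estimated counts in younger and 964361 to 2522749 in older mice, so that age and depth cannot be told apart. Prkcd was at 178 ± 56.8 in PKCd and 10.5 ± 13.9 in SST libraries, and Sst at 60.2 ± 108 and 238 ± 84.6 (TPM, a length-scaled share of all transcripts; mean ± SD, n = 4). The neuronal gene Snap25 stood at 30.9 to 325 TPM over all libraries. Markers of other cells were high beside it, with 12 microglial markers summing to 28632 to 46718 TPM in PKCd and 455 to 5178 TPM in SST libraries. SST replicate 4 stood apart by markers of choroid plexus epithelium: 8 of them summed to 4053 TPM there, to 54.3 TPM in the other older SST library, and to 0.087 to 11.8 TPM elsewhere. The levels and changes of Dcn and Lum, which were highest in SST replicate 4, are given with and without it.

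Dcn (chromosome 10, 97479500 to 97518163), which encodes decorin, a proteoglycan that coats collagen fibrils, was read mostly in the older SST mice. In PKCd replicates 1 to 4 it stood at 0, 0, 24.9 and 1.95 TPM, and in SST replicates 1 to 4 at 0, 1.37, 161 and 504 TPM. All 4 older libraries lay above all 4 younger ones, while the populations overlapped. The lowest older value, 1.95 TPM in PKCd replicate 4, was only 3 reads, so the separation by age rests on few reads. The highest younger value, 1.37 TPM in SST replicate 2, was 20 reads. The 3 libraries at 0 were deep, and a count of 0 there allows up to 0.148 to 0.239 TPM. Older libraries averaged 173 ± 232 TPM and younger ones 0.342 ± 0.683 TPM (SD, n = 4 each). Without SST replicate 4 the older mean was 62.5 ± 85.7 TPM (n = 3). The log2 fold change of older over younger was 9.15 ± 1.498 (SE), and 8.71 without SST replicate 4. It was 9.01 within SST libraries, and 9.70 within PKCd libraries, where both younger libraries held 0 reads and gave no measured denominator. It reached 12.26 without SST replicate 2, the 1 younger library with reads, of which it held 20. PKCd over SST gave -4.80 ± 1.30, with -4.33 without SST replicate 4 and -6.98 without PKCd replicate 3.

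Lum (chromosome 10, 97565501 to 97572703), which encodes lumican, a proteoglycan of the same family, lies 47337 bases beyond Dcn. It had 0 reads in all 4 younger libraries and in PKCd replicate 3, 1 read in PKCd replicate 4, 33 reads (18.6 TPM) in SST replicate 3 and 621 reads (208 TPM) in SST replicate 4. Reads of Lum were thus nearly all from the older SST mice, and most came from the library with choroid plexus markers. Pooled over libraries and scaled to their totals, older mice had at least 1946-fold higher Lum than the 3 reads that a count of 0 over the 4 younger libraries together allows. Without SST replicate 4 it was at least 163-fold higher, with 33 of the 34 older reads from SST replicate 3. This limit thus rests on 1 library, and the older PKCd libraries held 0 and 1 read. The same pooled ratio of Dcn, from 1592 older and 20 younger reads, was 709. It was 195 without SST replicate 4, with 245 of the 271 older reads from SST replicate 3. Kera, the annotated gene on the other side of Lum and another proteoglycan gene, was listed at 0 in every library, and Btg1, before Dcn, stood at 12.2 to 58.3 TPM in all 8.

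The 2 Dcn transcripts differed in their share between the libraries with most reads. The one that starts at position 97482367 gave 80.3% of the Dcn TPM in SST replicate 3 and 48.8% in SST replicate 4, and the rest came from the one that starts at 97479609. With 1 library each this is a description, and the division of reads between overlapping transcripts is the estimate of the authors' tool.

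Col1a2 (chromosome 6, 4505618 to 4541543), the alpha 2 chain of type I collagen, had reads in every library. It stood at 1.94, 2.69, 6.65 and 1.55 TPM in PKCd replicates 1 to 4 and at 10.9, 7.83, 58.2 and 26.1 TPM in SST replicates 1 to 4. Every PKCd library lay below every SST library, and the highest values were those of the older SST mice. Means were 3.21 ± 2.34 and 25.8 ± 23.04 TPM (SD, n = 4 each), with a log2 fold change of PKCd over SST of -2.67 ± 0.94 (SE). Older over younger gave 1.20 ± 0.90, with 0.61 within PKCd and 1.77 within SST libraries.

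Col1a1 (chromosome 11, 94936224 to 94953042), the alpha 1 chain, was lower than Col1a2 in every library and, like it, highest in the older SST mice. Its values were 0.185, 1.29, 0 and 0.731 TPM in PKCd and 1.32, 1.502, 15.5 and 9.48 TPM in SST replicates 1 to 4. The populations did not overlap, though PKCd replicate 2 and SST replicate 1 were nearly level. The log2 fold change of PKCd over SST was -2.83 ± 1.93 (SE), -4.93 within older and -0.92 within younger libraries. Older over younger was 0.92 ± 1.96, and its sign differed between populations, at -1.19 within PKCd and 2.83 within SST libraries. Without PKCd replicate 2 the changes were 2.08 for age and -4.03 for population. In PKCd replicate 3, where Col1a2 was highest among PKCd libraries, Col1a1 had no read. In PKCd libraries these values rest on 0 to 43 reads.

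The share of Col1a1 in the TPM of both type I chains was not used to choose the genes. The protein holds more alpha 1 than alpha 2 chains, as background. The share was 18.5 ± 11.6% over all libraries (SD, n = 8), with a range of 0 to 32.3%. PKCd libraries had 18.3 ± 16.4% and SST libraries 18.6 ± 6.77% (n = 4 each), a difference within the spread. The lowest, PKCd replicate 3, rested on 19 reads of both genes and the highest, PKCd replicate 2, on 142. SST libraries, with 274 to 675 reads, ranged from 10.8 to 26.6%.

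Col3a1 (chromosome 1, 45311538 to 45349706), the chain of type III collagen, did not follow the other fibroblast genes. Its values were 0.0155, 0.226, 10.96 and 0 TPM in PKCd replicates 1 to 4 and 2.37, 14.4, 0.197 and 3.62 TPM in SST replicates 1 to 4. High and low libraries stood in both populations and both ages. The highest were SST replicate 2, with 707 reads, and PKCd replicate 3, with 34. The log2 fold change of older over younger was 1.52 ± 3.61 (SE) but 5.24 within PKCd and -2.09 within SST libraries. That of PKCd over SST was -2.15 ± 3.56, with 1.49 within older and -5.83 within younger libraries. Col5a2, a chain of type V collagen 24624 bases beyond it, was at 0 in all 4 older libraries and at 0.793 to 2.56 TPM in the younger ones. Of all tested genes 3.53% were lower in every older library. In the shallower older libraries 3 reads of Col3a1 were worth 0.351 to 0.967 TPM. The like limit for Col5a2 was not computed, so what its 0 values allow may reach the lowest younger value.

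Col4a1 (chromosome 8, 11198423 to 11312889), a chain of the basement membrane collagen, was read in all libraries, from 4.41 to 54.7 TPM. It stood at 4.41, 43.3, 7.55 and 24.4 TPM in PKCd and 17.1, 54.7, 30.8 and 8.79 TPM in SST replicates 1 to 4. No group stood apart from its counterpart, and replicates within a group differed up to the range of the whole set. Log2 fold changes were -0.95 ± 0.78 (SE) for older over younger and -0.30 ± 0.77 for PKCd over SST. The latter was positive without PKCd replicate 1 (0.081) or SST replicate 3 (0.040).

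Col4a2, its partner chain, starts 21 bases away on the opposite strand, and the RefSeq genes overlap by 85 bases. Whether counting used the strand is not stated in the sources at hand, so reads in the overlap cannot be assigned. Col4a2 was at 2.81, 42.7, 0 and 9.33 TPM in PKCd and 5.41, 15.8, 9.51 and 7.85 TPM in SST replicates. The share of Col4a1 in both was 70.8 ± 16.0% (SD, n = 8), and 50.4 to 100% by library. It was 70.9 ± 21.4% in PKCd and 70.7 ± 11.9% in SST libraries (n = 4 each), which is within the spread.

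Igf2 (chromosome 7, 142650768 to 142666816), the growth factor, was lower in every PKCd than in every SST library. Its values were 1.48, 0.193, 3.96 and 4.08 TPM in PKCd and 7.03, 15.9, 47.3 and 10.96 TPM in SST replicates 1 to 4. Means were 2.43 ± 1.91 and 20.3 ± 18.3 TPM (SD, n = 4 each), and the log2 fold change was -3.24 ± 1.27 (SE). Within older and younger libraries it was -2.73 and -3.73. For older over younger the change was 1.59 ± 1.20, and the SST libraries of both ages overlapped. The transcript that starts at 142657496, whose window is printed above, gave 94.8 to 97.3% of the Igf2 TPM in the 6 libraries with at least 10 reads, and the one that starts at 142659489 was listed at 0 in all 8. Ins2, the insulin gene 11839 bases beyond Igf2, was at 0 in all libraries but SST replicate 1, at 11.99 TPM.

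Igfbp7 (chromosome 5, 77349240 to 77408045) was the most abundant of the 10 genes in every younger library and was lower in the older ones, the opposite of Dcn. It stood at 314, 522, 26.3 and 33.3 TPM in PKCd and at 2649, 558, 212 and 99.4 TPM in SST replicates 1 to 4. All 4 younger libraries lay above all 4 older ones. Within each age, both SST libraries lay above both PKCd libraries, and the 4 combinations of population and age did not overlap. Means were 92.8 ± 86.2 TPM in older and 1011 ± 1098 TPM in younger mice (SD, n = 4 each), where SST replicate 1 alone was above 558. The log2 fold change of older over younger was -3.97 ± 0.66 (SE), -4.03 within PKCd and -3.91 within SST libraries. PKCd over SST gave -2.23 ± 0.62, with -2.29 within older and -2.17 within younger libraries, and -1.499 without SST replicate 1. The older values rest on 14 to 185 reads and the younger ones on 3466 to 27474. The annotated Igfbp7 gene overlaps Polr2b, a subunit of RNA polymerase II, by 89 bases, and Polr2b stood at 0.479 to 61.6 TPM with no division by age.

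Igfbp2 (chromosome 1, 72824480 to 72852474) was present in 3 libraries and at or near 0 in the rest. It stood at 52.1, 0.119, 0 and 0 TPM in PKCd and at 0, 0.0966, 17.8 and 16.1 TPM in SST replicates 1 to 4. PKCd replicate 1 held 705 reads and replicate 2, of the same age and population, held 1. In SST mice both older libraries were higher, and in PKCd mice 1 younger library was. The single read of PKCd replicate 2 lies under the 2.92 to 4.60 TPM that a count of 0 allows in the older PKCd libraries. The next gene, Igfbp5, which lies 5590 bases beyond and encodes another binding protein, was at 36.8 and 18.6 TPM in SST replicates 3 and 4 and at 0 to 13.3 TPM elsewhere.

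Slc6a13 (chromosome 6, 121300288 to 121337721), the GABA and taurine transporter, was near or at 0 in 1 younger library of each population. Its values were 26.6, 0, 31.0 and 19.7 TPM in PKCd and 47.5, 0.112, 163 and 55.6 TPM in SST replicates 1 to 4. Both older SST libraries were above the other 6, and the groups overlapped by age and by population. Log2 fold changes were 1.17 ± 1.60 (SE) for older over younger and -1.62 ± 1.61 for PKCd over SST. With 1 library left out at a time they ranged from 0.74 to 3.06 and from -3.51 to -0.41, with 3.06 and -3.51 without PKCd replicate 1 and -0.41 without SST replicate 1. Slc6a12, the betaine transporter 4852 bases beyond, had 2.97 TPM in SST replicate 1 and 0 elsewhere.

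**Figure D1:**
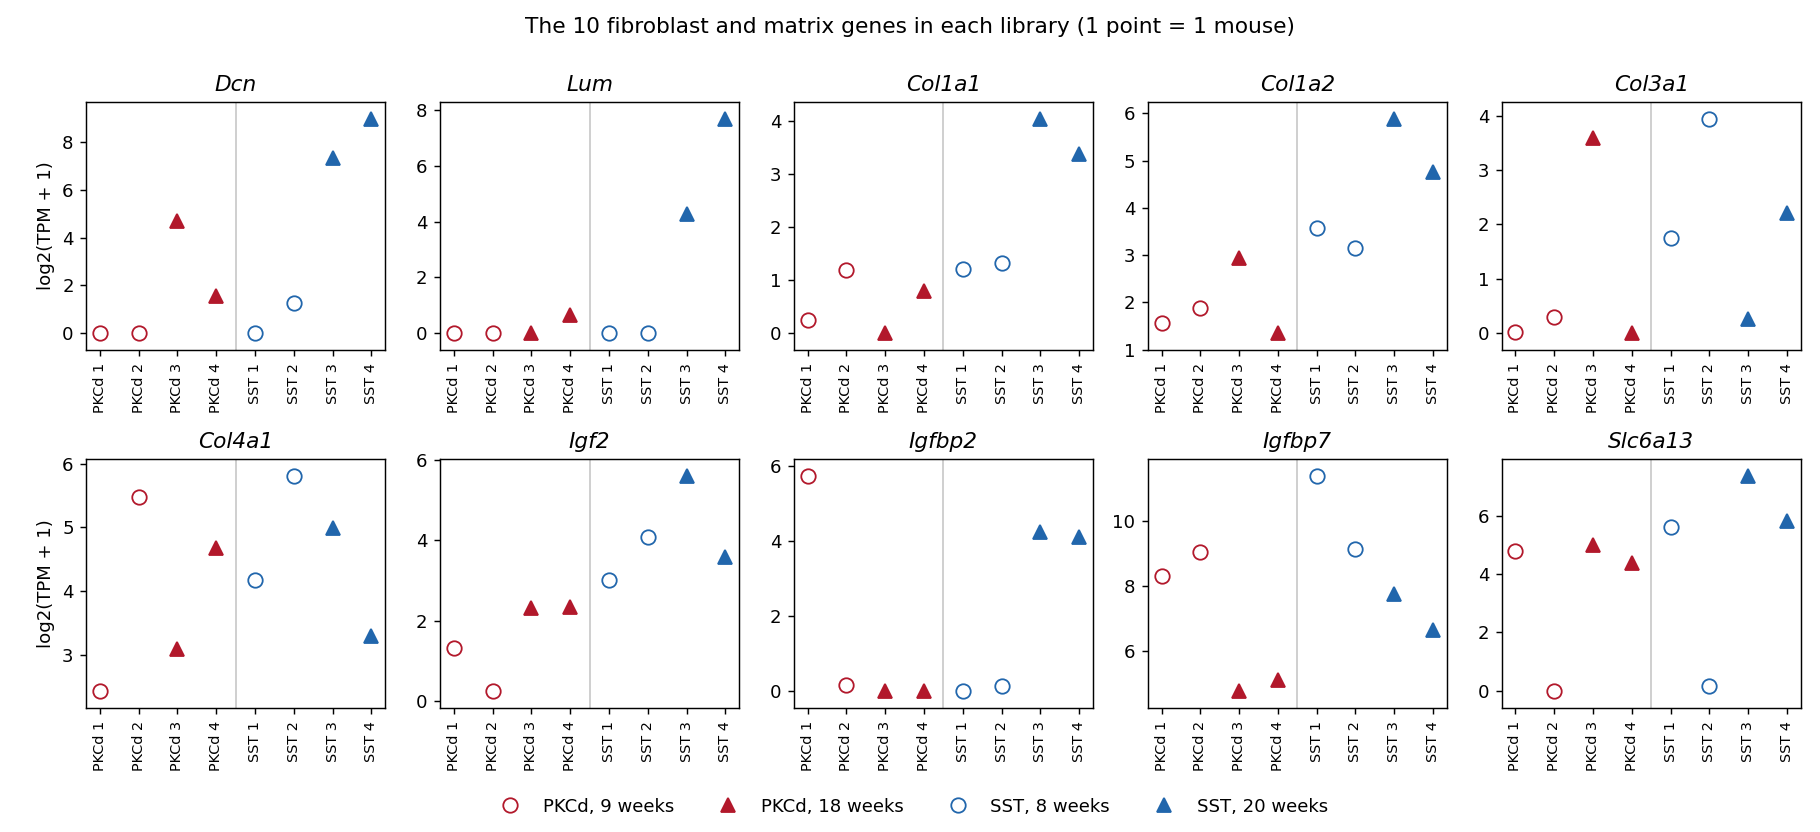
Levels of the 10 genes by library, as log2(TPM + 1) on the y axis, with a scale of its own for each gene. Each point is 1 mouse, open circles are younger and filled triangles older, red is PKCd and blue is SST. Dcn and Lum are highest in SST replicates 3 and 4, Igfbp7 is lower in all 4 older libraries, and Col3a1 and Col4a1 show no such division.

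The calls of the genes in the fits over all genes are listed for completeness only, each beside the share of all genes called by the same tool. In edgeR 0 of the 8 tested genes passed an adjusted p of 0.05 in either comparison, where 0.053% of all 11328 genes did for age and 0.282% for population. At an unadjusted p under 0.05 there were 2 of 8 for age, against 8.35% of all genes, and 4 of 8 for population, against 6.67%. DESeq2 called 2 for age, Dcn and Igfbp7, against 4.9% of all genes, and 4 for population, Dcn, Col1a2, Igf2 and Igfbp7, against 4.01%. limma on log2(TPM + 1) called Igfbp7 for age, against 0.468% of all genes, and 0 for population, against 1.3%. On log2(TPM + 0.1) it called 0 in either, against 0.106% and 0.6%. With no filter edgeR tested all 10 genes and called Dcn, Lum and Igfbp7 for age, against 1.48% of 16834 genes, and Dcn and Igfbp7 for population, against 1.6%. By TPM, Dcn was the 1 tested gene of 8 with no overlap and higher older values, where 4.15% of all genes were of this kind, and Igfbp7 the 1 gene with lower ones, against 3.53%. Col1a1, Col1a2 and Igf2 were lower in every PKCd library, against 3.05% of all genes, and none of the 8 was higher in every PKCd library, against 3.88%. The genes were selected in these contrasts, so nothing is read from their counts.

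**Figure D2:**
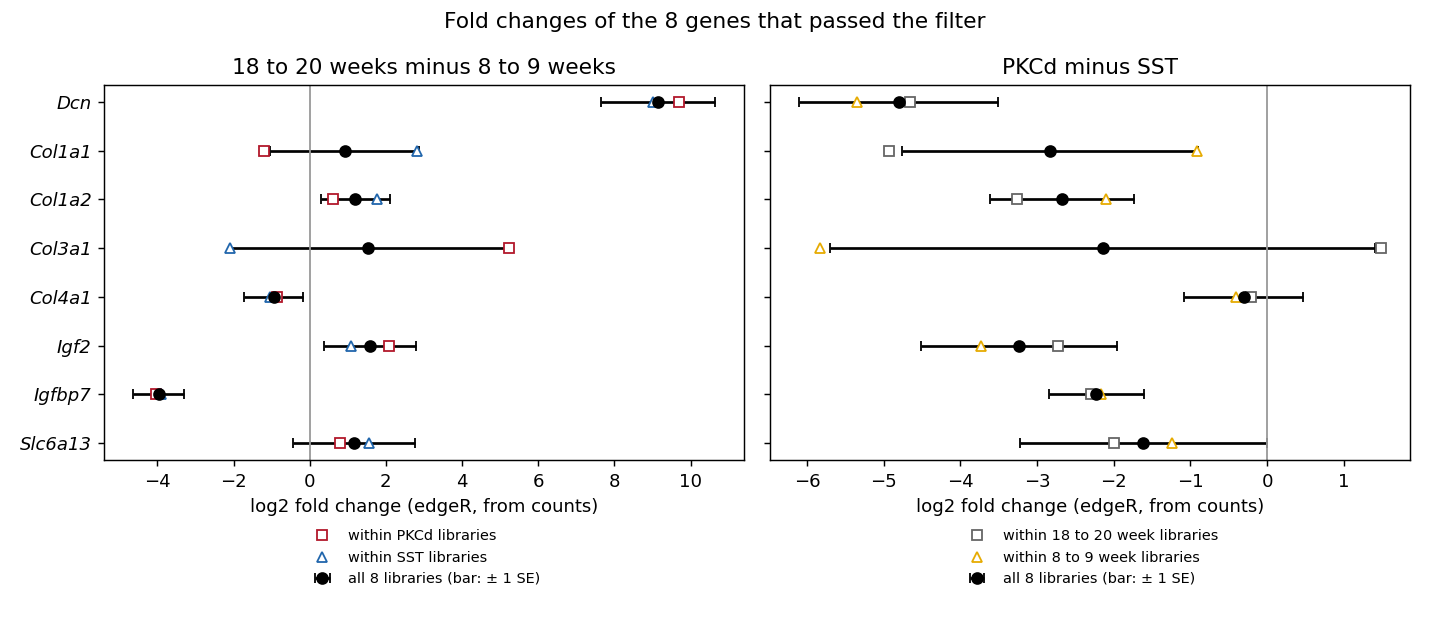
Log2 fold changes of the 8 genes that passed the filter, for age on the left and population on the right, with filled circles for all 8 libraries, bars of 1 SE and open symbols for the 2 groups taken singly. For age Dcn lies at 9.15 and Igfbp7 at -3.97, with the values within each population close to them. That of Dcn within PKCd libraries has no measured denominator, since both younger libraries held 0 reads. The open symbols of Col3a1 fall on both sides of 0 in both panels.

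The make-up of the summed TPM of the 10 genes followed the age class. Igfbp7 made up 78.3, 91.6, 96.8 and 85.4% of the sum in PKCd replicates 1 and 2 and SST replicates 1 and 2. In PKCd replicates 3 and 4 and SST replicates 3 and 4 its share was 23.6, 38.6, 29.3 and 10.6%. Dcn and Lum together gave at most 0.209% in younger libraries, and 22.4, 2.94, 24.8 and 75.6% in PKCd replicates 3 and 4 and SST replicates 3 and 4. The summed level itself was 292 ± 234 TPM in PKCd and 1264 ± 989 TPM in SST libraries, and 466 ± 433 TPM in older and 1090 ± 1102 TPM in younger ones (SD, n = 4 each). These means rest on few libraries: without SST replicate 1 those of SST and younger libraries were 773 and 542 TPM, and without SST replicate 4 that of older ones was 307 TPM.

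**Figure D3:**
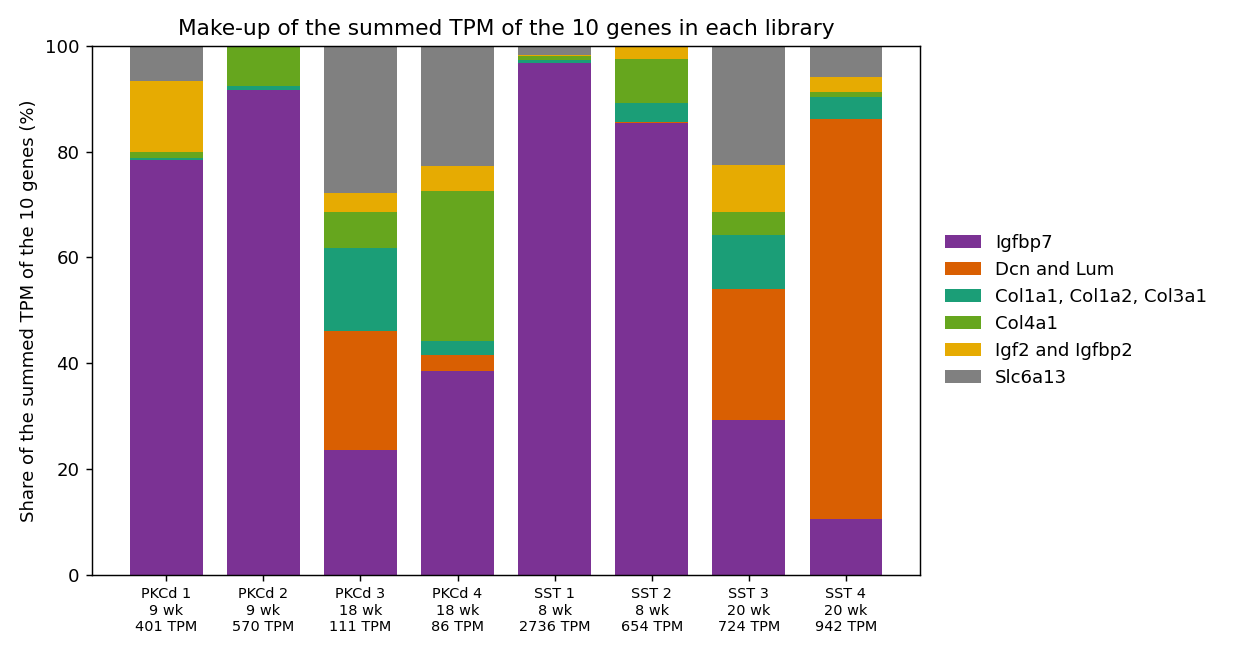
Share of the summed TPM of the 10 genes taken by each gene or gene group, in percent, 1 bar per library, with the age and the summed TPM under each bar. Igfbp7 fills 78.3 to 96.8% of the bars of younger libraries, and Dcn with Lum fills 75.6% of the bar of SST replicate 4.

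Dcn, Lum, Col1a1, Col1a2 and Col3a1, the genes of fibroblasts proper, summed to 2.14, 4.21, 42.6 and 4.82 TPM in PKCd and 14.6, 25.1, 253 and 751 TPM in SST replicates 1 to 4. The older SST libraries were higher than all others, and PKCd replicate 3 came next. In the files 23 other genes known from fibroblasts were measured, and they summed to 149 and 196 TPM in younger PKCd, 376 and 355 TPM in older PKCd, 457 and 402 TPM in younger SST and 1065 and 1063 TPM in older SST libraries. Of these 23 genes, 3 were at 0 in each older SST library and 6 to 8 in each other library. The sum without any of the 10 genes thus had the same highest pair of libraries. This is no independent check, since the list was chosen with earlier results of these data known. Few genes gave much of the sum: in SST replicates 3 and 4 Serping1 stood at 250 and 295 TPM and Pcolce at 294 and 146 TPM. Choroid plexus markers differed within this pair. In SST replicate 3, 5 of 8 were at 0, as 5 to 7 were in each PKCd and younger SST library. In SST replicate 4 none was. Their sum in SST replicate 3, 54.3 TPM, was still the second highest of the libraries, and their part in these sums was not tested.

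Markers of other vascular cells also differed between the libraries, and not all in the order of these sums. Pericyte markers (10 genes) summed to 313 to 4911 TPM in PKCd and 2677 to 12285 TPM in SST libraries, with the highest value in SST replicate 3. SST replicate 1, where the 5 fibroblast genes summed to 14.6 TPM, had 9720 TPM of pericyte markers, and SST replicate 4, where they summed to 751 TPM, had 9483 TPM. Their median log2 fold change was 1.40 for age and -1.90 for population, where all 10 were negative, and 1 of the 10 was at 0 in PKCd replicate 2. Smooth muscle markers (6 genes) summed to 53.9 to 1094 TPM in PKCd and 574 to 4321 TPM in SST libraries, and 0 to 2 of them were at 0 in a library. Endothelial markers (12 genes) summed to 1502 to 5642 TPM in older and 143 to 3600 TPM in younger libraries, with 0 to 3 genes at 0. All 12 had positive log2 fold changes for age (median 2.39) and 11 of 12 for population (median 3.26). The latter leaned towards PKCd libraries, unlike those of the pericyte markers. By library the populations overlapped, with sums of 327 to 5642 TPM in PKCd and 143 to 4492 TPM in SST libraries. In edgeR 0 of the 12 were called in either comparison. At an unadjusted p under 0.05 there were 5 for age and 3 for population, against 8.35% and 6.67% of all tested genes. Border macrophage markers (6 genes) summed to 15.9 to 493 TPM in PKCd and 0.111 to 3.61 TPM in SST libraries, where 3 to 5 of them were at 0. In SST replicate 4 the choroid plexus markers Ttr, Kcnj13, Folr1 and Otx2 stood at 3526, 406, 56.6 and 28.6 TPM, while in SST replicate 3 Ttr and Kcnj13 stood at 27.9 and 25.7 TPM, the second highest of the libraries, and Folr1 and Otx2 at 0. In the other 6 libraries Ttr was at 0 to 11.8 TPM. Their part in the levels of the 10 genes was not tested.

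**Figure D4:**
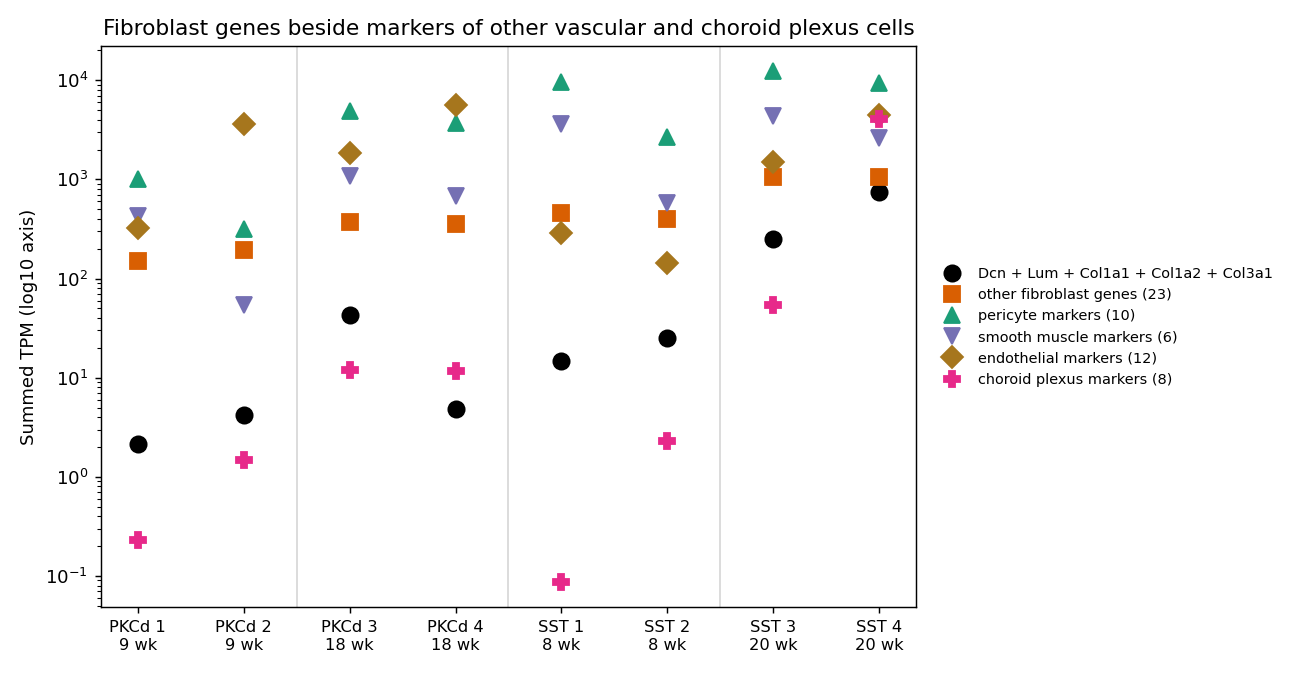
Summed TPM on a log10 axis for 8 libraries, with black circles for Dcn, Lum, Col1a1, Col1a2 and Col3a1 and coloured symbols for 23 other fibroblast genes and for pericyte, smooth muscle, endothelial and choroid plexus markers. The black circles reach 253 and 751 TPM in SST replicates 3 and 4, where the other fibroblast genes reach 1065 and 1063 TPM, while choroid plexus markers differ between those libraries, at 54.3 and 4053 TPM.

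The next question was how other genes of the same pathways stood in both comparisons. In 8 lists of related genes, 117 genes outside the 10 were listed, of which 76 could be tested. In edgeR 0 of the 76 passed over all genes in either comparison, with 8 at an unadjusted p under 0.05 for age and 13 for population. Of all tested genes 8.35% and 6.67% were under that p, against which the counts per list below are to be read. DESeq2 called 3 of the 76 for age, against 4.9% of all tested genes: P4ha2, Serpinh1 and Col5a1, each higher in older mice. For population it called 5 of the 76, against 4.01% of all tested genes. Of these 5, Fstl1, Pdgfra and Omd were lower and Sparc and Plod3 higher in PKCd libraries. limma called 0 at either pseudocount. Some genes stand in more than 1 list, among them Pcolce, Ogn and Col5a1. The median log2 fold change of all tested genes was -0.165 for age and -0.080 for population, and that for age was -0.058 with RLE scaling.

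Small leucine-rich proteoglycans, the family of decorin and lumican, leaned one way in both comparisons. Of 11 listed, 7 could be tested, with a median log2 fold change of 1.504 for age, where all 7 were positive, and of -2.80 for population, where all 7 were negative. At an unadjusted p under 0.05 there were 0 for age and 4 for population. Aspn, which encodes asporin, was at 14.5, 0, 29.7 and 129 TPM in PKCd and 319, 37.1, 255 and 352 TPM in SST replicates, with 43.3 ± 58.3 and 241 ± 142 TPM on average (SD, n = 4 each). Its log2 fold change of PKCd over SST was -3.44 ± 1.45 (SE), with an adjusted p of 0.667 in edgeR. Bgn, which encodes biglycan, the nearest relative of decorin, was at 19.2 ± 24.9 TPM in PKCd and 120 ± 62.3 TPM in SST libraries (log2 fold change -2.80 ± 1.05, adjusted p 0.556 in edgeR). SST replicate 2, at 32.2 TPM of Bgn, lay within the PKCd range of 0.501 to 55.3 TPM. Prelp and Ecm2 had log2 fold changes of -2.28 ± 1.05 and -2.18 ± 0.87 for population.

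Other fibroblast genes had a median log2 fold change of 1.22 for age, with 12 of 15 tested positive, and of -0.87 for population, with 6 of 15 positive. 2 of the 15 for age and 4 for population had an unadjusted p under 0.05. Fstl1, which encodes a secreted follistatin-like protein, was at 8.29, 8.17, 39.1 and 30.9 TPM in PKCd and 43.3, 44.4, 88.1 and 101 TPM in SST replicates 1 to 4. Every PKCd library lay below every SST library, as was so for 3.05% of all tested genes. The log2 fold change was -1.92 ± 0.57 (SE; adjusted p 0.314 in edgeR). Pcolce, an enhancer of procollagen processing, was at 9.09, 0.1004, 90.4 and 13.1 TPM in PKCd and 98.7, 21.2, 294 and 146 TPM in SST replicates. Serping1, a complement inhibitor, was at 20.3 ± 29.1 and 191 ± 115 TPM (SD, n = 4 each; log2 fold change -3.51 ± 1.42, adjusted p 0.633 in edgeR). Vim, which encodes the intermediate filament vimentin of many non-neuronal cells, had a log2 fold change of only 0.11 ± 0.96 for population.

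Pdgfra, a receptor of fibroblasts and also of oligodendrocyte precursors, was at 4.82, 0.423, 0.544 and 2.59 TPM in PKCd and 12.5, 185, 50.9 and 21.9 TPM in SST replicates. It is named here as a marker of both cell types, and its log2 fold change of PKCd over SST was -4.73 ± 0.99 (SE; adjusted p 0.105 in edgeR). Its highest library, SST replicate 2, also had the highest sum of 6 oligodendrocyte precursor markers, 2136 TPM against 33.6 to 523 TPM in the others. Pdgfra is itself among the 6, so the sum is not independent of it. Elsewhere they ran apart: PKCd replicate 1, with Pdgfra at 4.82 TPM, had a sum of 523 TPM. SST replicate 4, with Pdgfra at 21.9 TPM, had a sum of 54.9 TPM. Which cells gave these reads was not tested.

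Among leptomeningeal genes, 7 of 12 were tested, with medians of 0.58 for age and -1.69 for population, and 1 had an unadjusted p under 0.05 in each. Ptgds, the prostaglandin D synthase that meninges and oligodendrocytes are known to make, was at 2951, 132, 186 and 807 TPM in PKCd and 6569, 5907, 2080 and 994 TPM in SST replicates. As with Igfbp7, both older SST libraries were lower than both younger ones, while the PKCd libraries overlapped. Its log2 fold change of older over younger was -2.09 ± 0.79 (SE; adjusted p 0.513 in edgeR). Slc6a20a, a proline transporter of the same family as Slc6a13, was at 52.8, 0, 773 and 511 TPM in PKCd and 177, 357, 597 and 760 TPM in SST replicates. All 4 older libraries of Slc6a20a lay above all younger ones, as was so for 4.15% of all tested genes. Its log2 fold change of older over younger was 2.81 ± 1.38 (adjusted p 0.624 in edgeR). Foxc1, a transcription factor of the meninges, changed by 0.58 ± 1.13 for age and -1.16 ± 1.14 for population.

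Enzymes and chaperones of collagen had a median log2 fold change of -0.22 for age and -0.79 for population over 17 tested genes, with 3 and 2 at an unadjusted p under 0.05. Serpinh1, the collagen chaperone HSP47, was at 43.5, 5.57, 94.6 and 108 TPM in PKCd and 28.8, 38.0, 366 and 133 TPM in SST replicates. The older libraries were all higher, as was so for 4.15% of all tested genes. The log2 fold change was 2.24 ± 0.67 (SE; adjusted p 0.361 in edgeR). P4hb, a subunit of the prolyl hydroxylase that serves other proteins as well, was at 330 ± 46.3 TPM in older and 190 ± 54.9 TPM in younger libraries (SD, n = 4 each; log2 fold change 0.58 ± 0.40, adjusted p 0.726 in edgeR). Other collagens of fibrils and basement membranes had 7 of 15 tested, medians of 0.41 and -0.43, and 3 and 0 at an unadjusted p under 0.05. Col5a1, which nucleates fibrils of type I collagen, had a log2 fold change of 3.83 ± 1.65 for age.

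Basement membrane glycoproteins had a median log2 fold change of 1.69 for age, with 10 of 11 tested positive, and of -0.30 for population, with 0 and 2 at an unadjusted p under 0.05. Sparc, an abundant collagen-binding protein also known from microglia, endothelium and astrocytes, was at 2346 ± 490 TPM in PKCd libraries and at 897 ± 224 TPM in SST (SD, n = 4 each). Its PKCd values all lay above its SST values, as was so for 3.88% of all tested genes. The log2 fold change was 1.35 ± 0.46 (SE; adjusted p 0.466 in edgeR), in the same direction as the sums of microglial markers. Lamc1 and Nid1, a laminin chain and nidogen, had log2 fold changes of -1.40 ± 1.24 and -1.58 ± 0.65 for population.

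Of the insulin-like growth factor axis 12 of 21 measured genes were tested, with medians of 1.31 for age and 0.076 for population and 0 at an unadjusted p under 0.05 in either. DESeq2 and limma called 0 as well. Igfbp3 was at 0.0372, 0, 0 and 16.6 TPM in PKCd and 29.7, 22.8, 25.0 and 9.22 TPM in SST replicates, which overlapped by 1 library (log2 fold change -5.06 ± 3.25 SE, adjusted p 0.859 in edgeR). Igf1r, the receptor that IGF2 binds, was at 17.4 ± 10.8 TPM in PKCd libraries against 7.73 ± 6.19 TPM in SST (SD, n = 4 each), within the spread. Among the relatives of Slc6a13, Slc6a11, a GABA transporter of astrocytes, had a log2 fold change of -1.15 ± 1.17 (SE) for age and 0.67 ± 1.16 for population. Slc6a6, a taurine transporter, was at 65.4 ± 47.2 TPM in PKCd libraries and at 21.3 ± 10.9 TPM in SST (SD, n = 4 each). Its difference by population was 1.68 ± 0.65 on the log2 scale, with an adjusted p of 0.583 in edgeR. In this list, of which 4 of 5 genes were tested, edgeR called 0, with 0 and 1 at an unadjusted p under 0.05 and 0 calls in DESeq2 and limma.

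**Figure D5:**
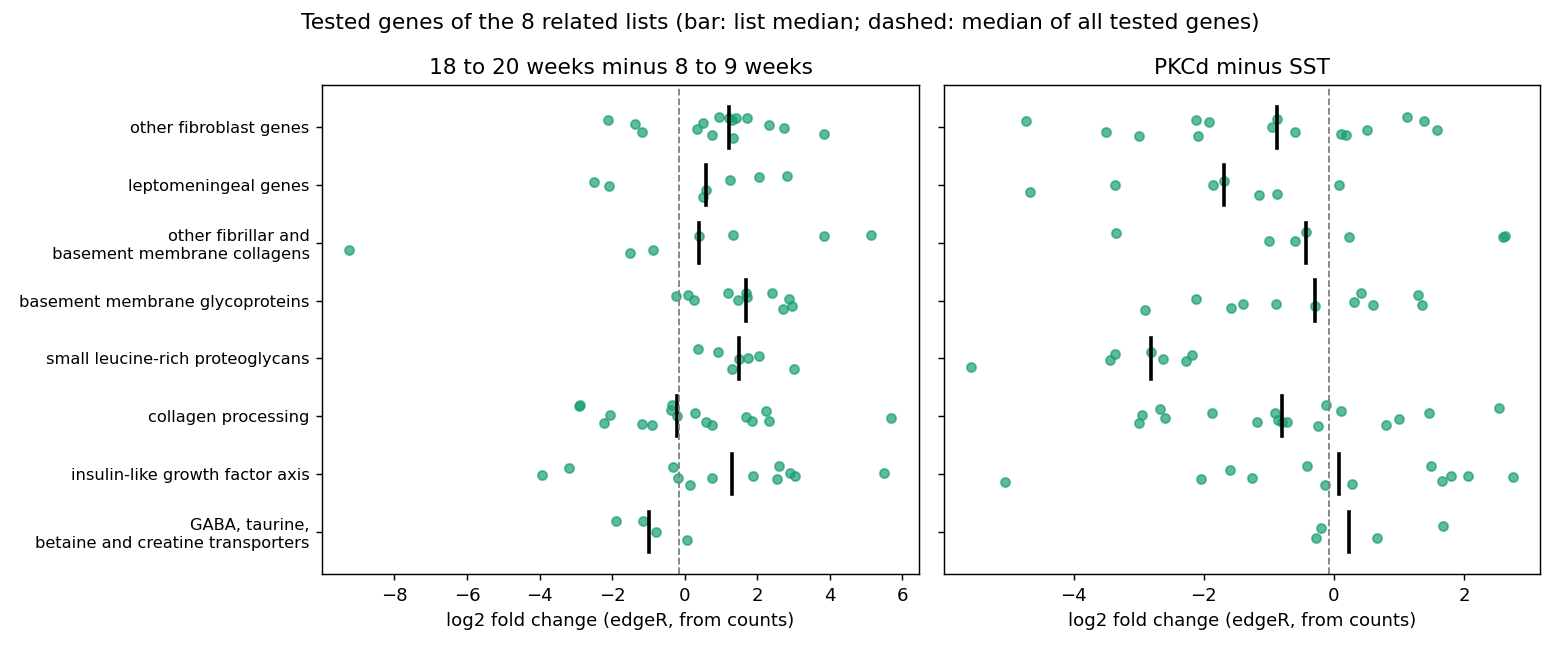
Log2 fold changes of the tested genes of 8 related lists, 1 point per gene, with a black bar for each list's median and a dashed line for the median of all tested genes. All 7 small leucine-rich proteoglycans lie above 0 for age and below 0 for population, while the collagen processing list spreads over both sides of 0 in both panels.

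Both older SST libraries lay above the other 6 in TPM for 5 of the 10 genes, Dcn, Lum, Col1a1, Col1a2 and Slc6a13, of which 4 were tested. This was so for 5.62% of all tested genes. Since the 10 were selected on these values, nothing is read from their count. Outside them, 5 of 15 tested genes of the other fibroblast list, 5 of 17 of the collagen processing list and 2 of 7 of the proteoglycan list were of this kind. So were 1 of 7 leptomeningeal genes, 1 of 7 other collagens, 1 of 11 basement membrane glycoproteins, 1 of 12 genes of the insulin-like growth factor axis and 0 of 4 transporters. Among marker lists the counts were 4 of 10 for pericytes, 2 of 8 for astrocytes, 0 of 5 for smooth muscle and 0 of 12 for endothelium. The pericyte markers were Rgs5, Kcnj8, Abcc9 and Higd1b, and the choroid plexus markers Ttr and Kcnj13 were of this kind too.

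The genes whose levels were most like those of Dcn, Lum, Col1a1, Col1a2 and Col3a1 were found by the root mean square difference of centred log2(TPM + 1) over 8 libraries. The 5 nearest genes with a mean of at least 10 TPM were Cav1 (0.92), Fstl1 (0.93), Dnaja1 (0.93), Bhlhb9 (0.95) and Gpc6 (0.95), where the median over the genes compared was 2.05. Cav1, the caveolin of endothelial and other vascular cells, was at 24.1, 33.9, 152 and 135 TPM in PKCd and 53.7, 66.7, 206 and 352 TPM in SST replicates 1 to 4. Gpc6, which encodes a glypican proteoglycan, was at 2.56, 6.23, 14.6 and 6.60 TPM in PKCd and 5.91, 15.5, 37.9 and 21.4 TPM in SST replicates. All of them had their 2 highest values in SST replicates 3 and 4, where the pattern was highest too. This follows from how the 5 nearest genes were picked, and nothing is read from it. Of the 5 genes that formed the pattern, Col1a2 lay at 0.80 from their mean, Col1a1 at 0.92, Lum at 1.32, Dcn at 1.78 and Col3a1 at 1.96.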

How the data were processed

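Each of 8 files gives length, effective length, estimated counts and TPM per transcript. The estimated counts and TPM values were made by the authors with kallisto, whose column names the files carry, per the file headers. Versions kallisto 0.43.0 and BWA 0.7.12 and build mm10 are named in the submitters' processing notes. What BWA did, and the strand setting, are not given in the sources used here. A TPM value is scaled to one total per library and keeps no depth.

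Of 30404 transcripts, 30080 were named from the RefSeq table of GRCm38.p6 and 147 from GENCODE, and 177 kept their accession, which gave 20692 genes. Values were summed per gene, and estimated counts were rounded to whole numbers. edgeR 4.0.16 (R 4.3.3; TMM, default filter by population, quasi-likelihood test, terms for age class and population) tested 11328 genes, with Benjamini-Hochberg adjustment over all of them and a threshold of 0.05. SEs were taken from its F statistic. DESeq2 1.42.0 and limma 3.58.1 on log2(TPM + 1) and log2(TPM + 0.1) were alternatives, as were RLE scaling, no filter, other terms and leaving out each library. The edgeR step was run on simulated counts with the same spread set for every gene, unlike the replicates here. That run checked the code, and nothing about the calls is read from it.

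The 10 genes, the 8 gene lists and the 10 marker lists were chosen with earlier results of these data known. Named genes are the 10, up to 4 genes of each list with the highest mean TPM, those past the threshold, annotated neighbours, and the 5 genes nearest in pattern. Pdgfra, Plod3, Omd, P4ha2, Col5a2 and the genes named by their highest libraries were added after their values were seen. A gene of the transporter list is not reported here. Per the labels each library is 1 mouse, so a p-value reflects mice, sorting and amplification at once. Limits from a count of 0 leave out amplification, which makes reads dependent on each other. Coordinates are 1-based.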

Additional observations from a re-analysis of the deposited data

Results flagged for a closer look

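In groups of 4 libraries (PKCd, SST, older, younger) the highest or lowest library was set against the others by Dixon's test at the 95% level, for each of the 10 genes. Of 40 groups 12 stood out, which include genes with 3 libraries at or near 0. The nominal rate of 1 in 20 assumes normally distributed values, which TPM values with zeros are not. The genes were also selected on these values, so the 12 are listed and not read against that rate. The groups share libraries and are not independent.

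SST replicate 4 stood out for Lum, at 207.5 TPM, among both the SST and the older libraries. PKCd replicate 4 did so among PKCd libraries for Lum with 0.584 TPM, a single read. For Dcn it was PKCd replicate 3 among PKCd libraries (24.9 TPM) and SST replicate 2 among younger ones (1.37 TPM). Among younger libraries Col1a1 was lowest in PKCd replicate 1 (0.185 TPM). Col3a1 was high in PKCd replicate 3 among PKCd libraries (10.96 TPM) and in SST replicate 2 among younger ones (14.4 TPM). SST replicate 3 was high for Igf2 among older libraries (47.3 TPM). Igfbp2 was high in PKCd replicate 1 among both PKCd and younger libraries (52.1 TPM). SST replicate 1 was high for Igfbp7 among younger libraries (2649 TPM).

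Igfbp2 went opposite ways in both populations. Older minus younger was -26.1 TPM in PKCd and 16.9 TPM in SST mice. PKCd minus SST was -17.0 TPM in older and 26.1 TPM in younger mice. The difference was not tested, and the PKCd direction rests on replicate 1 alone: the 0.119 TPM of replicate 2 is below the 2.92 to 4.60 TPM that a count of 0 allows in the older PKCd libraries.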

How the results depend on the processing

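The number of genes called for age, 6 of 11328, was 2 with RLE scaling, 555 with DESeq2, 249 with no filter, 53 and 12 with limma on log2(TPM + 1) and log2(TPM + 0.1), 1 within PKCd and 0 within SST libraries, and 0 to 2 with each library left out (2 without SST replicate 3, 0 without any other). That for population, 32, was 454 with DESeq2, 269 with no filter, 147 and 68 with limma, 8 within older and 0 within younger libraries, and 10 to 52 with each library left out (10 without PKCd or SST replicate 3, 13 without SST replicate 4, 15 and 17 without PKCd replicates 1 and 4, 21 without PKCd replicate 2, 52 without SST replicate 1). With the replicate number as a replicate block it was 24. Whether the numbers mark a shared preparation cannot be decided here. After removal of population means alone, same-numbered libraries had correlations of 0.0615 to 0.174, which still hold the age difference. By these, 2 of 4 PKCd libraries were nearest their own number. With age means removed too the correlations were -0.00533 to -0.00285, where the 2 libraries of a group mirror each other. Of the 8 gene lists, 0 genes were called, and for age 3 with DESeq2 and 4 with no filter, for population 5 with either. Of the 10 marker lists, 0 were called for age, and 9 with DESeq2 and 12 with no filter. For population 4 were called, all microglial, and 25 with DESeq2, 27 with no filter, 13 and 10 with limma, 2 within older and 0 within younger libraries, and 1 to 9 with each library left out. The cause of these differences was not tested.

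Of 256 recomputed log2 fold changes of the 8 genes, 9 changed sign, for Col3a1, Col4a1 and Col1a1. By no more than the gene's residual SD 230 moved. That is the SD of log2(TPM + 1) after terms for age and population, while most fold changes came from counts. It was 2.40 for Slc6a13, whose change for age counted as unmoved at 3.06 without PKCd replicate 1. The 230 thus do not show that the changes are stable. Col3a1 changed sign for age in 5 settings, down to -2.40 without PKCd replicate 3. Dcn kept its sign at 5.33 to 12.26 for age and Igfbp7 at -4.23 to -3.18. The mean sums and the Col1a1 share moved by less than their SD in every setting run. Leaving out 1 library cannot move a mean by that much, so this does not show that the means are stable. Without SST replicate 1 the mean sum went from 1264 to 773 TPM in SST and from 1090 to 542 TPM in younger libraries. Depth limits the older libraries, where 3 reads were worth 1.11 to 3.08 TPM of Dcn against 0.148 to 0.239 TPM in the younger ones. With 2 libraries per population and age, age and depth cannot be told apart.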
